A study of Mus musculus with 12 samples.

Results

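The sarcomere is the contractile unit of striated muscle. Myosin thick filaments slide past actin thin filaments, troponin and tropomyosin on the thin filament make that sliding depend on calcium, and titin spans from the Z-disc, where thin filaments are anchored, to the M-band, where thick filaments are cross-linked. Before birth the mouse heart exchanges several early sarcomere protein forms for later ones, and atrial and ventricular muscle use different light chains. The 33 genes described here encode thick and thin filament proteins, titin, and Z-disc and M-band proteins, with a few factors tied to them. They were found by symbol among 45664 gene rows, and all 33 passed the low-count filter that left 20691 genes for testing.

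Bulk RNA-seq was made from whole hearts of mouse embryos, with 12 libraries in 4 groups of 3. The groups are Ino80 KO and wild-type (WT) hearts at E14.5, and Ino80 KO and WT hearts at E13.5 (E marks the embryonic day). Ino80 encodes the ATPase of the INO80 chromatin remodeller, and its disruption was endothelial with Tie2, a driver active in endothelium, endocardium and blood cells. Per the labels all E13.5 hearts belong to litter 1, E14.5 KO replicates 2 and 4 and WT replicates 7 and 8 to litter 2, and E14.5 KO replicate 1 and WT replicate 7.2 to litter 3. E14.5 against E13.5 therefore cannot be told apart from litter, and the strain and deleted segment are not given in the sources used here. Libraries held 46556032 to 182545647 counts. P-values measure the spread between these hearts. In bulk RNA, fewer cells of a type and less RNA per cell cannot be told apart.

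Ino80 itself was read at 31.9, 27.0 and 29.5 library-scaled CPM (counts scaled to a common library size by edgeR) in E14.5 KO replicates 1, 2 and 4, and at 31.4, 30.8 and 33.9 CPM in E14.5 WT replicates 7, 7.2 and 8. At E13.5 it was at 29.6 CPM in each of 3 KO hearts and at 36.6, 30.7 and 33.8 CPM in WT replicates 1, 2 and 4. The log2 fold change averaged over the stages was -0.15 ± 0.06 (SE; adjusted p = 0.22 in edgeR's quasi-likelihood test), which did not pass. Cardiomyocytes lie outside the Tie2 lineage, so by design their Ino80 was not targeted. Which cells lost Ino80 was not measured here. Cardiomyocyte markers (Ryr2, Pln, Slc8a1, Corin, Cacna1c, Nkx2-5 and Tbx20) were all read. Their summed level was 3347 to 3892 CPM in E14.5 KO, 3579 to 4317 in E14.5 WT, 2753 to 2952 in E13.5 KO and 3037 to 3271 in E13.5 WT hearts. All 7 of these markers lay below 0 in KO against WT at each stage, with 0 called, and the part of cardiomyocyte content in the KO values below was not tested. With stage 6 of the 7 lay above 0 and 2 were called, with a median log2 fold change of 0.25, and every E14.5 sum exceeded every E13.5 sum. Pln was the largest part of the sum, averaging 1791 and 1994 CPM in E14.5 KO and WT, against 1187 and 1383 in E13.5 KO and WT. Nkx2-5 averaged 150 and 170.5 CPM in E14.5 KO and WT, against 176 and 180.5 in E13.5 KO and WT. The part of cardiomyocyte content in the stage values below was not tested either. Replicate 2 of E14.5 KO and replicate 5 of E13.5 KO were lowest in the summed macrophage and leukocyte markers, at 14.48 and 9.18 CPM. The other KO hearts were at 21.5 to 65.8 CPM and WT hearts at 47.9 to 61.6 CPM. E13.5 KO replicates 3 (21.5 CPM) and 7 (38.4 CPM) also lay below every WT heart, so no clear gap sets the lowest 2 off. They are called the hearts that stood apart below. Without both of these lowest hearts 0 members passed in each KO comparison, and their part in the results was not tested. The erythroid sum reached 41890 CPM in E14.5 KO replicate 1, against 4781 to 18390 CPM in the other hearts.

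Several of these genes changed with stage, and none passed in KO against WT of a stage. At E14.5 against E13.5, averaged over the genotypes, 10 of the 33 passed (adjusted p under 0.05), 30.3% against 17.2% of all genes tested: Tnni3, Ldb3, Csrp3, Myom2, Nexn and Xirp2 rose, and Myl4, Myl7, Tnnt1 and Tpm2 fell. Within KO hearts alone 4 passed (Myom2 and Xirp2 up, Myl4 and Tpm2 down; 3.74% of all genes), and within WT hearts alone 2 passed (Nexn up, Tpm2 down; 4.04%). KO against WT gave 0 calls at E13.5 (0.106% of all genes), 0 at E14.5 (0.222%) and 0 with both stages averaged (1.42%). The interaction, which sets the KO effect of E14.5 against the KO effect of E13.5, also gave 0 calls (0.0% of all genes). At an unadjusted p under 0.05 there were 3, 0, 2 and 1 members in these 4 KO comparisons, against 10.3%, 9.59%, 14.7% and 3.61% of all genes, and DESeq2 called 0, 0, 1 and 0 members. The share of all genes called is not given here for DESeq2 or the other settings. The median log2 fold change of the members was 0.07 for stage, against 0.00 over all genes. For KO it was 0.02 at E13.5 and -0.09 at E14.5, against 0.00 and -0.01 over all genes. Of the 10 stage calls, 6 (Myl4, Myom2, Tnni3, Tnnt1, Tpm2 and Xirp2) passed in all 21 other settings tried. One of those settings gave litter 3 a term of its own, so that the stage contrast became litter 2 against litter 1, which does not separate stage from litter. With that term 7 members passed, the seventh being Des, and without both hearts that stood apart 8 passed. The count within KO hearts went to 0 without both of those hearts, without E14.5 KO replicate 1 or without replicate 3 or 5 of E13.5 KO, and that within WT hearts to 0 without E13.5 WT replicate 1, E13.5 WT replicate 4 or E14.5 WT replicate 7.2.

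**Figure D1:**
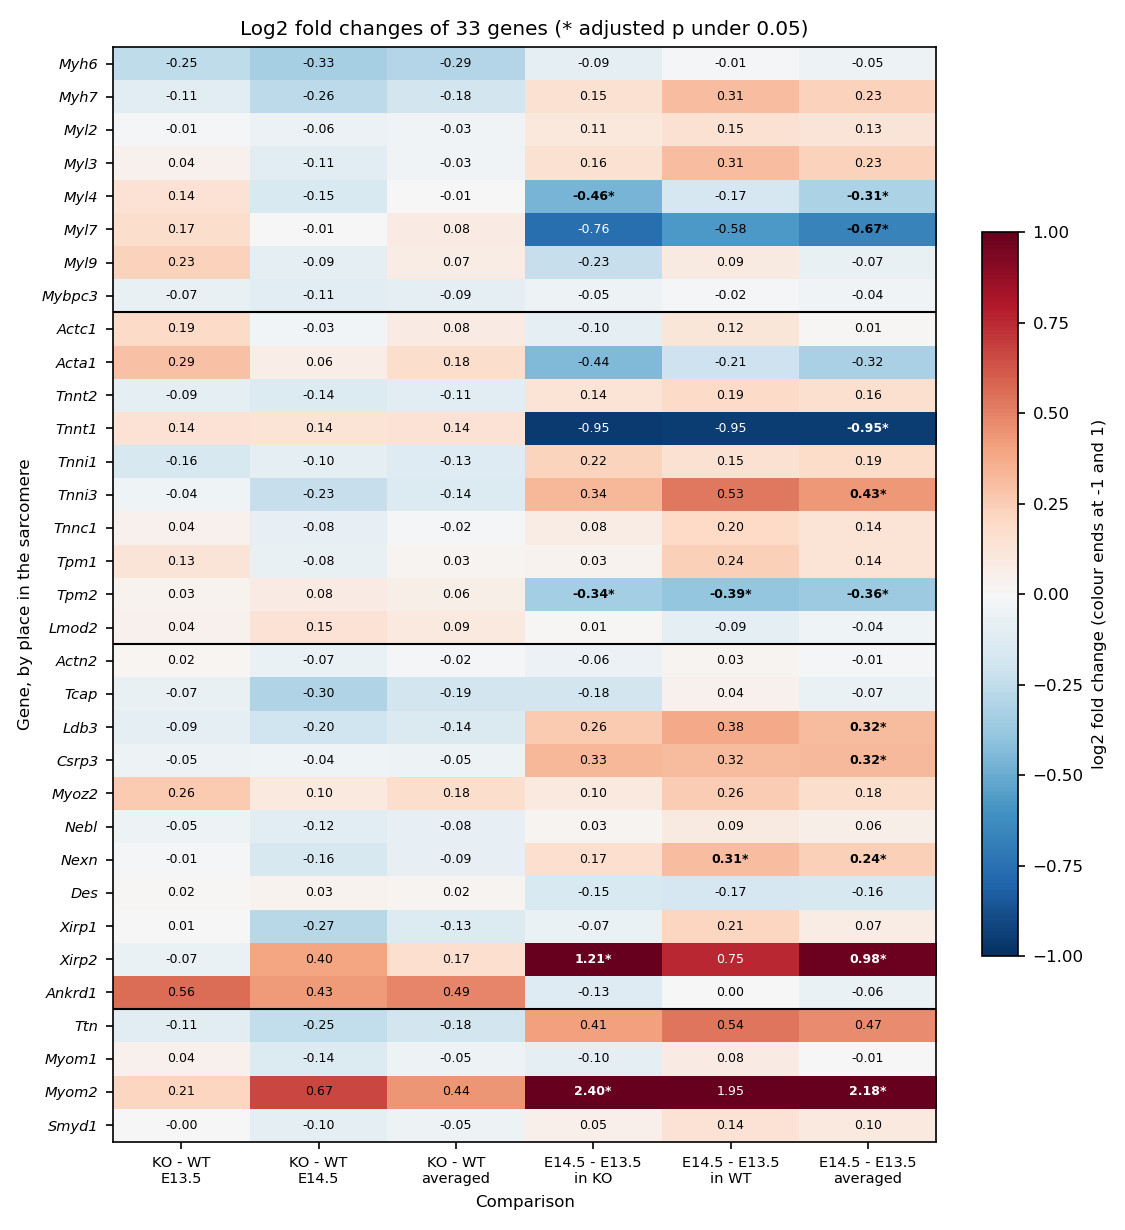
Log2 fold changes of all 33 genes (rows, by place in the sarcomere) in 6 comparisons (columns), KO over WT and E14.5 over E13.5, with the value printed in each cell and a star where the adjusted p is under 0.05. Stars stand in the stage columns, 10 of them in the column averaged over the genotypes, and none stand in the KO columns.

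Promoter sequence of 3 members whose levels changed with stage, and of Myh7 and Acta1, is shown for what motifs it holds. Of the 33 members, 29 were matched to a RefSeq promoter table of GRCm38.p6, and the 250 bases before each start were searched on both strands. The CArG box, bound by serum response factor, was found in 9 of 38 member windows (23.7%) and in 1.47% of 32851 windows of all genes. The MCAT motif (CATTCC), bound by TEAD factors, was in 26.3% against 12.6%, the MEF2 box in 10.5% against 2.92%, and TATAAA in 10.5% against 12.4%. Several members have more than 1 window, and a match is a description of letters only. In the windows below, read 5′ to 3′ on the strand of the gene, capitals mark a CArG box and an MCAT motif in Myl7 (chr11:5898783-5899032, minus strand), a MEF2 box in Xirp2 (chr2:67445752-67446001, plus strand), an MCAT motif in Myh7 (chr14:54994627-54994876, minus strand), and a CArG box, an MCAT motif and a TATAAA in Acta1 (chr8:123894776-123895025, minus strand). Myl4 (chr11:104550413-104550662, plus strand), which fell like Myl7, held none of the 4. A further Myh7 window (chr14:54994550-54994799, minus strand), not printed, also held none of the 4.
Myl7: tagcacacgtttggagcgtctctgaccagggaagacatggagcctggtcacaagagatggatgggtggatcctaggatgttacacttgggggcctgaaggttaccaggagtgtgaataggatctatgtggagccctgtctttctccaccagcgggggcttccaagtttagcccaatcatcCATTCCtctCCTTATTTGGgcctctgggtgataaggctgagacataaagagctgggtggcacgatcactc
Myl4: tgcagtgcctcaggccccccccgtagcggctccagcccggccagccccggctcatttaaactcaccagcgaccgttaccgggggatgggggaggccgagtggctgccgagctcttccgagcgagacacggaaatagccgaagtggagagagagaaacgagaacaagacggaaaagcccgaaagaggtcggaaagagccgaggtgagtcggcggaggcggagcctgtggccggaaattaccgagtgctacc
Xirp2: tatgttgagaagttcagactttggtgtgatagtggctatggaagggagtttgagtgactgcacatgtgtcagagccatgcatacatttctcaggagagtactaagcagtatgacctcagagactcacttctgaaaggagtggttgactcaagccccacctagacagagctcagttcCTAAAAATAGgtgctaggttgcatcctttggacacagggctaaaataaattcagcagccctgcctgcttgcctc
Myh7: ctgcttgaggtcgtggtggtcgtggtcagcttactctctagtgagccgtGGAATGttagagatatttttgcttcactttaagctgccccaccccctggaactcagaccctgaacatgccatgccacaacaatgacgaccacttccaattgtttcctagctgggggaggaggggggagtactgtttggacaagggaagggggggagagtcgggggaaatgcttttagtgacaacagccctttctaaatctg
Acta1: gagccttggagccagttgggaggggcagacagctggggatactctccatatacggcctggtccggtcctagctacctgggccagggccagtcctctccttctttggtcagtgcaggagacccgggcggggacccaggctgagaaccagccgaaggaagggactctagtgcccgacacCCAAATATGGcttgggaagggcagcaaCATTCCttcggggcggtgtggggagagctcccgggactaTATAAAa

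Among thick filament genes the myosin light chains of early and atrial muscle fell with stage. Myl7, the atrial regulatory light chain, was at 305, 272 and 250 CPM in E14.5 KO replicates 1, 2 and 4 and at 295, 199 and 336 in E14.5 WT replicates 7, 7.2 and 8. It was at 511, 469 and 416 CPM in E13.5 KO replicates 3, 5 and 7 and at 358, 351 and 528 in E13.5 WT replicates 1, 2 and 4. All 6 E14.5 hearts lay below all 6 E13.5 hearts, and the log2 fold change was -0.67 ± 0.14 (adjusted p = 0.0101, edgeR). With the litter 3 term the log2 fold change was -0.60 (adjusted p = 0.052), and without both hearts that stood apart it was -0.66 (adjusted p = 0.051). Myl4, an embryonic and atrial essential light chain, was at 1191, 1167 and 1222.5 CPM in E14.5 KO hearts and at 1429, 1177 and 1375 in E14.5 WT, against 1691, 1748 and 1493 in E13.5 KO and 1376, 1486.5 and 1605 in E13.5 WT hearts. It fell by 0.31 on the log2 scale (SE 0.06, adjusted p = 0.00559), and the groups overlap at the WT end. Summed atrial markers (Sln, Nppa, Nr2f2, Kcnj3, Stard10) ran from 306 to 456 CPM in E14.5 KO, 225 to 362 in E14.5 WT, 447 to 541.5 in E13.5 KO and 338 to 433 in E13.5 WT, with 4 of 5 below 0 with stage, none at 0 and 1 called. Nppa was the largest part of the sum, averaging 340 and 206 CPM in E14.5 KO and WT and 430 and 313 in E13.5 KO and WT. In KO against WT 4 of the 5 atrial markers lay below 0 and 1 above at E13.5. At E14.5 3 lay below 0 and 2 above, and 0 were called at either stage. Of 5 ventricular markers (Irx4, Hey2, Mpped2, Hand1, Gja5) 4 also lay below 0 with stage, with 1 called up and 2 down. Their median log2 fold change with stage was -0.33, against -0.16 for the atrial markers. In KO against WT 5 ventricular markers lay below 0 at E13.5 and 4 at E14.5, with 0 called. The part of atrial tissue in the fall of Myl7 and Myl4 was not tested.

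The ventricular chains did not pass. Myl2, the ventricular regulatory light chain, was at 4614, 4229 and 3879 CPM in E14.5 KO hearts and at 4847, 4683 and 3721 in E14.5 WT, against 4243, 3879 and 3705 in E13.5 KO and 3794, 4101 and 4019 in E13.5 WT. Its groups overlapped in both stage and genotype. Myl3, the ventricular essential light chain, was at 3105, 2694 and 2324 CPM in E14.5 KO and 3026, 3196 and 2551 in E14.5 WT, against 2624, 2365 and 2304 in E13.5 KO and 2239, 2511 and 2321 in E13.5 WT. Its stage log2 fold change was 0.23 ± 0.08 (adjusted p = 0.0531), just outside the threshold, and it was called in 4 of the 21 other settings. The heavy chains were Myh6, the α-myosin of atria and adult ventricle, and Myh7, the slow β-myosin of embryonic ventricle. Myh6 was at 2566, 1944 and 2325 CPM in E14.5 KO and 3443, 1847.5 and 3303 in E14.5 WT, against 3217, 2228 and 1815 in E13.5 KO and 2700.4, 2817 and 3124 in E13.5 WT. Myh7 was at 6842, 4155 and 4651 CPM in E14.5 KO and 7170, 5171 and 6419 in E14.5 WT, against 5138, 4723 and 4231 in E13.5 KO and 5174, 5330 and 4678 in E13.5 WT. For both heavy chains the genotypes overlapped at each stage. The averaged KO log2 fold change was -0.29 ± 0.18 for Myh6 (adjusted p = 0.482) and -0.18 ± 0.12 for Myh7 (adjusted p = 0.506). These 2 genes lie 3756 bases apart on chromosome 14, and 22.6% and 22.2% of the 50-base words of their principal transcripts are shared, so their split is uncertain. Myl9, a light chain of smooth muscle and embryonic heart, had KO log2 fold changes of 0.23 ± 0.13 at E13.5 (adjusted p = 0.563) and -0.09 ± 0.13 at E14.5. Summed smooth muscle markers were 1430.0 to 1910.0 CPM in E13.5 KO and 1240.0 to 1483 in E13.5 WT. At E14.5 they were 1305 to 1759 CPM in KO and 1100.0 to 1499 in WT. In KO 4 of the 6 markers lay above 0 at E13.5 and 5 at E14.5, with 0 called at either stage. The part of smooth muscle in the Myl9 values was not tested. Mybpc3, myosin-binding protein C, ran between 1482 and 2187 CPM over the 12 hearts, with KO log2 fold changes of -0.07 and -0.11.

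**Figure D2:**
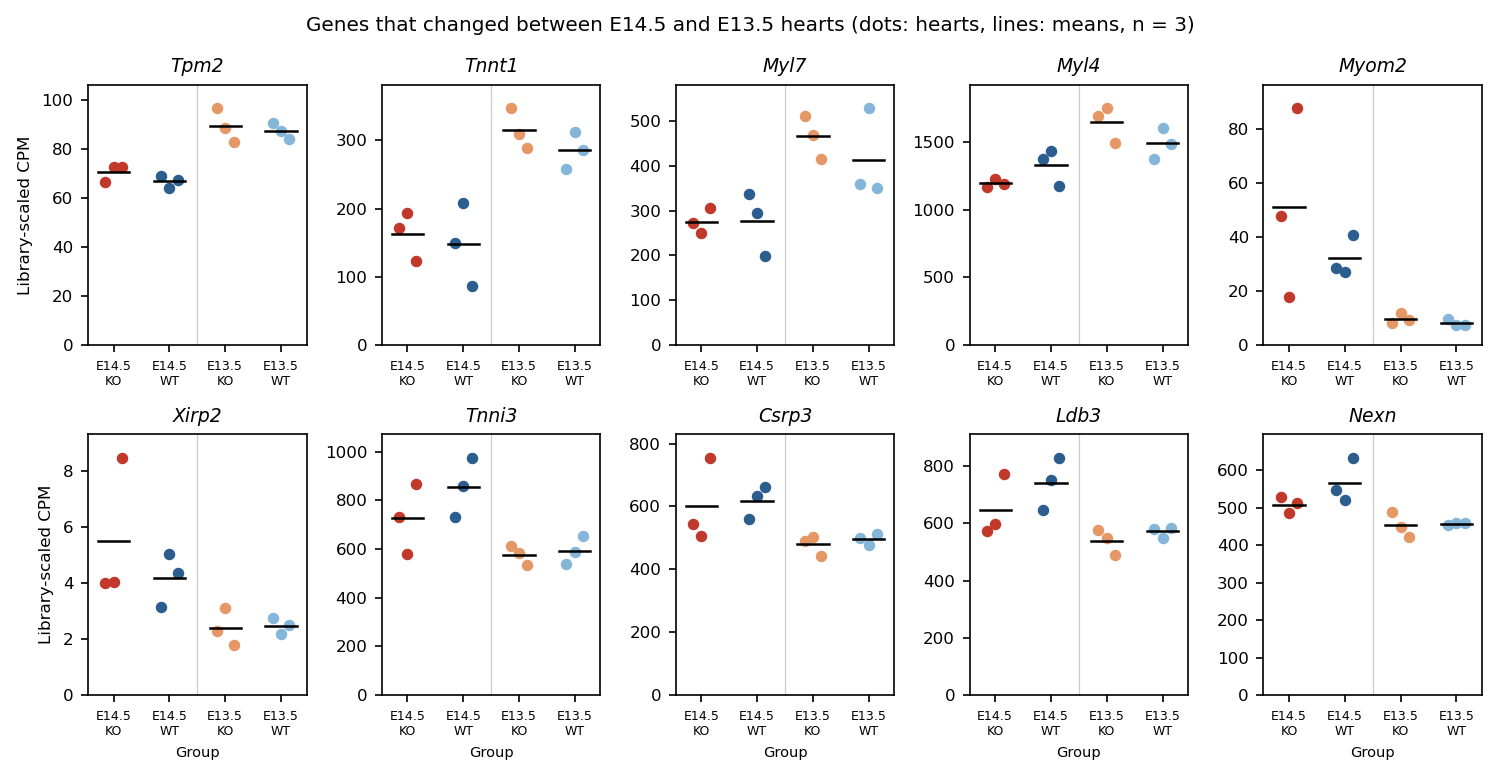
Library-scaled CPM (axes from 0) of the 10 genes called between E14.5 and E13.5, in KO and WT hearts of each stage. Dots are hearts and bars are group means of 3. For Tpm2, Tnnt1, Myl7, Myom2 and Xirp2 the E14.5 and E13.5 hearts do not overlap.

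On the thin filament, Tpm2 (β-tropomyosin) and Tnnt1 (the slow skeletal form of troponin T, the tropomyosin-binding subunit) fell with stage, and Tnni3 (the cardiac form of troponin I, the inhibitory subunit) rose. Tpm2 was at 72.7, 66.7 and 72.9 CPM in E14.5 KO hearts and at 64.0, 67.6 and 69.1 in E14.5 WT, against 96.8, 88.7 and 83.0 in E13.5 KO and 90.8, 84.4 and 87.4 in E13.5 WT. All E14.5 hearts lay below all E13.5 hearts, with a log2 fold change of -0.36 ± 0.05 (adjusted p = 0.000898, edgeR). Summed smooth muscle markers, set beside Tpm2, overlapped between the stages (1100.0 to 1759 CPM at E14.5, 1240.0 to 1910.0 at E13.5). Acta2 was the largest part of that sum, averaging 1141 and 1034 CPM in E14.5 KO and WT and 1214 and 1013 in E13.5 KO and WT. Of the 6 markers 4 lay below 0 and 2 above 0 with stage, and 2 were called down and 0 up. The part of smooth muscle in the fall of Tpm2 was not tested. Tnnt1 was at 123, 172 and 193 CPM in E14.5 KO and at 208, 86.0 and 149 in E14.5 WT, against 347, 309 and 289 in E13.5 KO and 258, 286 and 312 in E13.5 WT. All 6 E14.5 values lay below every E13.5 value, and it fell by 0.95 on the log2 scale (SE 0.19, adjusted p = 0.00995). Tnni3 was at 868, 732 and 582 CPM in E14.5 KO and at 860, 975 and 730.4 in E14.5 WT, against 612, 582 and 534 in E13.5 KO and 540.1, 653 and 587 in E13.5 WT, a log2 fold change of 0.43 ± 0.10 (adjusted p = 0.0109). Its lowest E14.5 heart, KO replicate 4, lay among the E13.5 hearts. Tnni3 and Tnnt1 lie 1922 bases apart on the minus strand of chromosome 7 and moved opposite ways with stage.

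Skeletal muscle markers were set beside Tnnt1. Among them Myod1 and Myf5 had 0 to 4 counts in every library, and of 7 tested markers 3 fell and 1 (Ckm) rose with stage. Ckm, which the heart also expresses, averaged 548 CPM in E14.5 KO and 634.5 CPM in E14.5 WT, against 203 CPM in E13.5 KO and 208 CPM in E13.5 WT.

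The remaining thin filament genes did not pass. Actc1, cardiac α-actin and the highest of all 33 per length, was at 8052, 7645 and 7115 CPM in E14.5 KO and 7525, 8409 and 7359 in E14.5 WT, against 8673, 8472 and 7308 in E13.5 KO and 7112, 7387 and 6950.0 in E13.5 WT. At E13.5 its log2 fold change was 0.19 ± 0.08 (adjusted p = 0.457). It lies 5.32 Mb from Ino80 on chromosome 2, and linked sequence was not tested. Acta1, skeletal α-actin, was at 147, 147 and 91.7 CPM in E14.5 KO and 106, 106 and 157 in E14.5 WT, against 156, 183 and 184 in E13.5 KO and 134, 174 and 118 in E13.5 WT, with overlap between genotypes at both stages. Troponin T and I bind tropomyosin and hold it in the blocking position when calcium is low. Tnnt2, cardiac troponin T, was at 4173.5, 3171 and 3421 CPM in E14.5 KO and 3969, 4280 and 3618 in E14.5 WT, against 3689, 3109 and 2992 in E13.5 KO and 3533, 3413 and 3470 in E13.5 WT. Tnni1, slow skeletal and fetal cardiac troponin I, was at 1819, 1566.5 and 1641 CPM in E14.5 KO and 1897.5, 1761 and 1720 in E14.5 WT, against 1561, 1478 and 1278 in E13.5 KO and 1477, 1683 and 1673 in E13.5 WT. Its averaged KO log2 fold change was -0.13 ± 0.06 (adjusted p = 0.363), and with stage it was called in 3 of the 21 other settings. Tpm1, α-tropomyosin, ran from 2221 to 3105 CPM over the 12 hearts, Tnnc1, the calcium-binding troponin C, from 833 to 1125 CPM and Lmod2, leiomodin 2 of thin filament pointed ends, from 92.7 to 120 CPM. Each of these overlapped between genotypes at both stages.

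**Figure D3:**
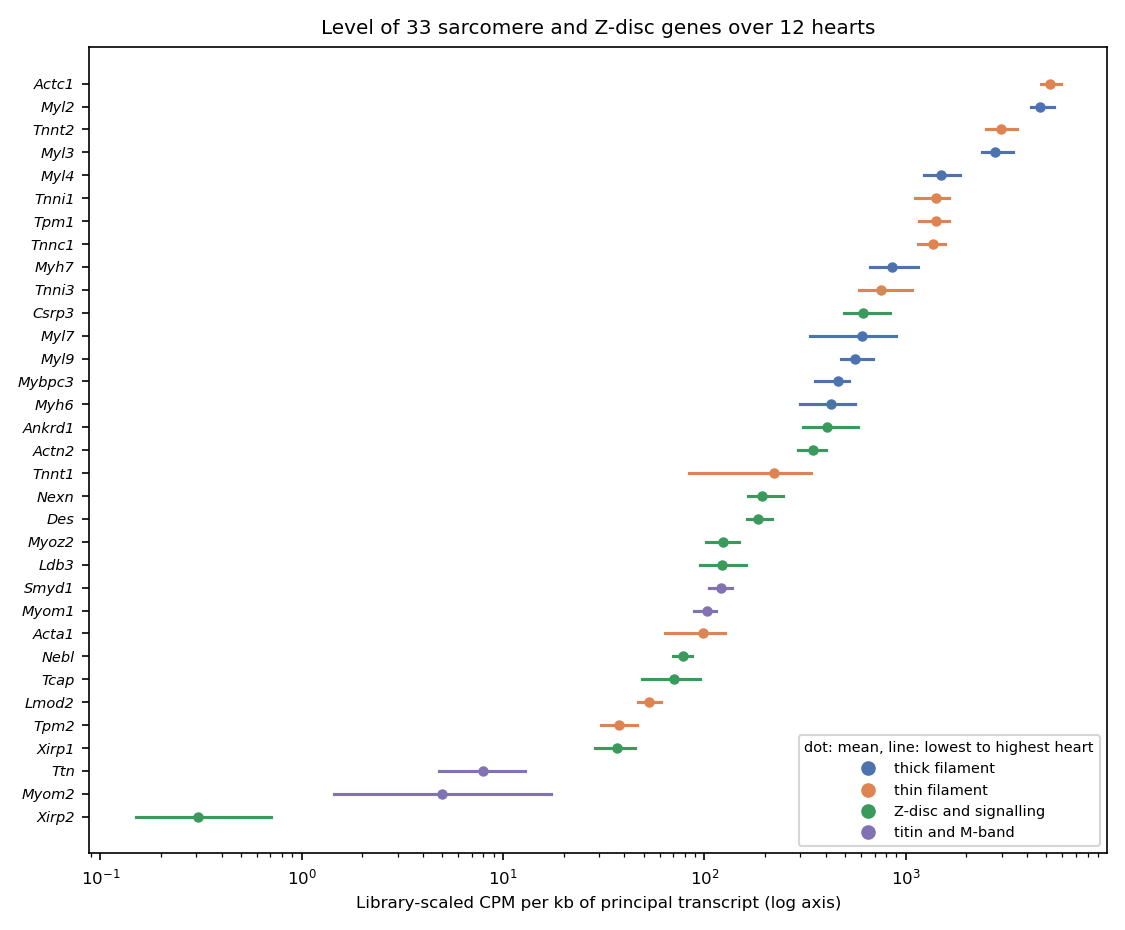
Level of each gene as CPM per kilobase of its principal transcript (log axis), as the mean (dot) and the lowest to highest of 12 hearts (line), coloured by place in the sarcomere. Actc1, Myl2 and Tnnt2 lead at 5205, 4660 and 2975 CPM per kb, and Xirp2 at 0.304 is lowest.

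Per length, mean levels over the 12 hearts were 5205 CPM per kb for Actc1, 4660 for Myl2, 2975 for Tnnt2 and 2780.2 for Myl3, and the hearts of Myl2 and Actc1 overlapped in range. At the low end stood Ttn at 7.99, Myom2 at 4.98 and Xirp2 at 0.304 CPM per kb. The principal titin transcript is 100404 bases long. The 33 genes took between 3.93% and 4.82% of all counts per library.

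At the Z-disc, 4 genes rose with stage. The cardiomyocyte marker sum was also higher in E14.5 hearts, with Pln its largest part. Xirp2, a Xin repeat protein of intercalated discs, was at 8.47, 3.99 and 4.05 CPM in E14.5 KO and 5.02, 4.35 and 3.14 in E14.5 WT, against 2.27, 3.12 and 1.79 in E13.5 KO and 2.77, 2.499 and 2.16 in E13.5 WT. All E14.5 hearts exceeded all E13.5 hearts, and the log2 fold change was 0.98 ± 0.21 (adjusted p = 0.0089, edgeR). Csrp3 (muscle LIM protein) was at 754, 543 and 507 CPM in E14.5 KO and 635, 660.2 and 561 in E14.5 WT, against 491, 504 and 441 in E13.5 KO and 500.1, 513 and 478 in E13.5 WT, a log2 fold change of 0.32 ± 0.09 (adjusted p = 0.0246). Its call was lost without E13.5 KO replicate 7 (adjusted p = 0.0572), E13.5 WT replicate 4 (0.054) or E14.5 WT replicate 7.2 (0.0598), at log2 fold changes of 0.30, and with the litter 3 term (0.0937, at 0.20). Ldb3 (ZASP, a PDZ-LIM protein) was at 772, 572 and 596 CPM in E14.5 KO and 752, 829 and 646 in E14.5 WT, against 578, 549 and 489 in E13.5 KO and 582, 585 and 549 in E13.5 WT, a log2 fold change of 0.32 ± 0.08 (adjusted p = 0.0187; 0.0588 without litter 3 and 0.0681 with the litter 3 term, at log2 fold changes of 0.20). Nexn, nexilin, was at 511, 528 and 485 CPM in E14.5 KO and 520, 633 and 548 in E14.5 WT, against 488, 447 and 422.5 in E13.5 KO and 454, 458 and 458 in E13.5 WT, a log2 fold change of 0.24 ± 0.06 (adjusted p = 0.0127; 0.059 without both hearts that stood apart and 0.0594 with the litter 3 term, at log2 fold changes of 0.22 and 0.19). For each of Csrp3, Ldb3 and Nexn 1 E14.5 heart, a KO, lay inside the E13.5 range.

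Ankrd1, a stretch-induced ankyrin repeat protein of the I-band and nucleus, had the smallest p of the members in the KO comparison averaged over both stages. It was at 896, 1176.5 and 667 CPM in E14.5 KO and 630, 627 and 784 in E14.5 WT, and at 1122.5, 1110 and 765 in E13.5 KO and 633, 692 and 710 in E13.5 WT. At E13.5 all KO hearts exceeded all WT hearts, and at E14.5 they overlapped. The averaged log2 fold change was 0.49 ± 0.14 (adjusted p = 0.118), with 0.0327 without E14.5 KO replicate 4 and 0.00602 with DESeq2, and a range of 0.00602 to 0.384 over all settings. Myoz2, calsarcin, had 0.18 ± 0.08 (adjusted p = 0.32), and was at 175, 169 and 136 CPM in E14.5 KO and 152, 164 and 132 in E14.5 WT, against 171, 147 and 131 in E13.5 KO and 121, 129 and 126 in E13.5 WT. Xirp1 was at 248, 167 and 186 CPM in E14.5 KO and 263, 238 and 226 in E14.5 WT (log2 fold change -0.27 ± 0.13, adjusted p = 0.525), and ran from 188 to 227 CPM in E13.5 KO and 197 to 228 in E13.5 WT. Actn2 (sarcomeric α-actinin), Tcap (telethonin), Nebl (nebulette) and Des (desmin) did not pass in KO against WT or with stage, though Des was called with stage in 4 of the 21 other settings. They had averaged KO log2 fold changes of -0.02, -0.19, -0.08 and 0.02.

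In the M-band, Myom2, a myomesin of the adult heart, rose the most. It was at 87.6, 47.9 and 17.7 CPM in E14.5 KO and 27.1, 40.6 and 28.5 in E14.5 WT, against 8.02, 11.9 and 9.14 in E13.5 KO and 9.84, 7.37 and 7.61 in E13.5 WT. All E14.5 hearts exceeded all E13.5 hearts and the fold was 4.52 (log2 2.18 ± 0.35, adjusted p = 0.0046, edgeR). The E14.5 KO hearts were themselves widely spread. Myom1, another myomesin, ran from 499 to 644 CPM with a stage log2 fold change of -0.01. The ratio of Myom2 to Myom1 given below therefore mostly follows Myom2. Ttn, the titin spring, had a stage log2 fold change of 0.47 ± 0.18 (adjusted p = 0.101), and Smyd1, a methyltransferase needed for myosin assembly, 0.10 ± 0.06.

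Ratios of 7 pairs of related members, most set as the later or ventricular form over the earlier or atrial form, are free of library scaling. The ratios printed are per kb of principal transcript, and those of groups are back-transformed means of log2 ratios. They therefore differ from ratios of the CPM given above. None passed a two-sided exact permutation test after Benjamini-Hochberg adjustment over 48 tests. A test averaged over genotypes or stages cannot go below 0.005, and 3 hearts against 3 cannot go below 0.1. The ratio of Tnnt2 to Tnnt1 was 19.1 in E14.5 KO and 24.3 in E14.5 WT, against 8.85 in E13.5 KO and 10.4 in E13.5 WT. All 6 E14.5 hearts lay above all E13.5 hearts (log2 difference 1.16, exact p = 0.005, adjusted p = 0.06). The same p applied to Myl3 over Myl4 (2.27 and 2.22 in E14.5 KO and WT, 1.49 and 1.59 in E13.5 KO and WT; difference 0.54), to Tpm1 over Tpm2 (42.5 and 47.4 in E14.5 KO and WT, 32.9 and 30.7 in E13.5 KO and WT; difference 0.50) and to Myom2 over Myom1 (difference 2.05), again without overlap. Myl2 over Myl7 was 10.2 in E14.5 KO and 10.8 in E14.5 WT, against 5.63 in E13.5 KO and 6.50 in E13.5 WT (difference 0.80, exact p = 0.01, adjusted p = 0.096), with overlap. Tnni3 over Tnni1 differed by 0.23 (exact p = 0.045, adjusted p = 0.229) and Myh6 over Myh7 by -0.27 (exact p = 0.1). KO against WT, averaged over the stages, gave exact p-values from 0.29 to 0.935, the largest difference being 0.37 for Myom2 over Myom1. At E13.5 alone KO lay above WT without overlap for Tnni3 over Tnni1 (difference 0.12) and below WT for Tnnt2 over Tnnt1 (-0.24). Both had exact p = 0.1, the floor, and adjusted p = 0.229. At E14.5 the genotypes overlapped for both, with differences of -0.14 and -0.35. The stage difference passed for 5 pairs without E14.5 WT replicate 8 and for 5 pairs without E14.5 KO replicate 4 (adjusted p = 0.048 each). Each of these hearts was the one that overlapped in the pair gained, at 7.35 for Myl2 over Myl7 and 0.447 for Tnni3 over Tnni1. In this permutation test 4 pairs at the floor of 0.005 come to an adjusted p of 0.06, and 5 pairs come to 0.048. Passing therefore rests on how many pairs reach the floor.

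**Figure D4:**
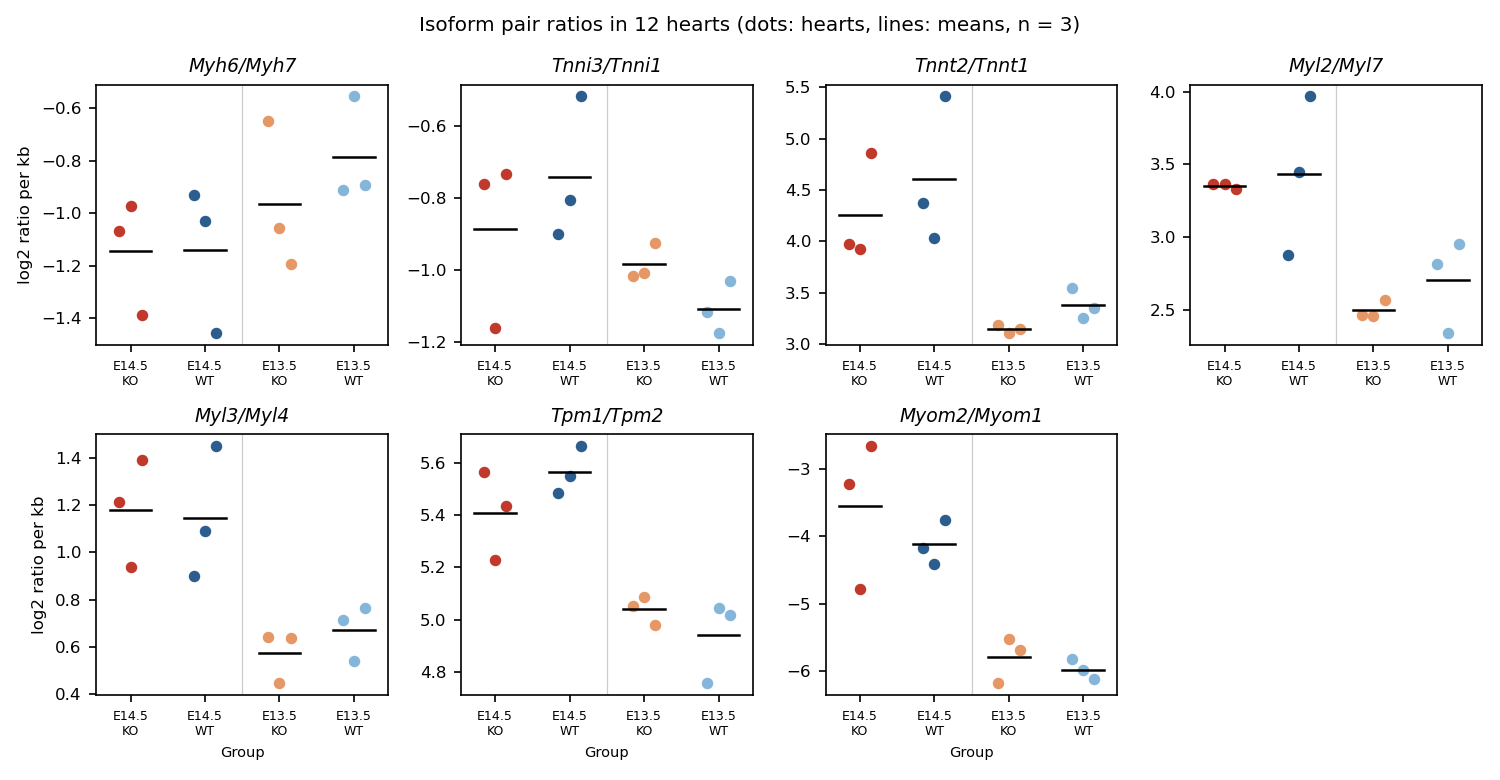
Log2 ratio per kilobase of 7 pairs of related genes in 12 hearts, by stage and genotype (dots are hearts, bars are means of 3). For Tnnt2/Tnnt1, Myl3/Myl4, Tpm1/Tpm2 and Myom2/Myom1 all E14.5 hearts stand above all E13.5 hearts.

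The KO effect at E14.5 was also taken within each litter. Of the 33 members, 17 were lower in KO in litter 2 and higher in KO in litter 3 (51.5%, against 25.5% of all genes) and 0 the other way round, with 6 above 0 in both and 10 below in both. Litter 3 has 1 heart of each genotype, so its errors and tests take their spread from the other groups and assume that a lone heart varies like those. Its KO heart is replicate 1, with the erythroid sum of 41890 CPM, and summed Y-linked genes were at 0.0703 CPM in that KO heart and 218 CPM in the WT heart. In litter 2 they were at 241 CPM in KO replicate 4 and at 0.0624 CPM in KO replicate 2, against 0.184 and 0.236 CPM in WT hearts. Litter, erythroid content and sex cannot be told apart in this sign pattern. Myh7 was at 6842 CPM in KO and 5171 in WT of litter 3, and at 4155 and 4651 in KO and 7170 and 6419 in WT of litter 2. In litter 2 it was called (log2 fold change -0.63 ± 0.11, adjusted p = 0.0407, edgeR), the only member of 33 against 0.304% of all genes, and in litter 3 it was higher in KO (0.40 ± 0.15, adjusted p = 0.347), with 0 members called there (0.0387% of all genes). The KO effect in litter 3 minus that in litter 2 called 0 members, against 0.00483% of all genes, with the smallest adjusted p 0.175 for Myh7. At an unadjusted p under 0.05 there were 8 members in litter 2, 5 in litter 3 and 7 for the difference, against 11.9%, 11.2% and 11.1% of all genes. DESeq2 was not run on litters. Without litter 3, Myh7 had an averaged KO log2 fold change of -0.36 ± 0.07 (adjusted p = 0.0236) and of -0.62 at E14.5 (0.0368). Ttn had -0.70 in litter 2 and 0.59 in litter 3, and Myh6 -0.66 and 0.47. At E14.5 all 8 thick filament genes lay below 0 in KO over both litters, with 0 called and log2 fold changes from -0.33 to -0.005. Litter 2 shares that count (8 of 8) and litter 3 does not (3 of 8). Over both litters 6 of 10 thin filament, 7 of 11 Z-disc and 3 of 4 titin and M-band genes also lay below 0 at E14.5. That made 24 of the 33 members below 0. At E13.5 the 8 thick filament genes split into 4 above 0 and 4 below. Over all genes 48.1% lay above 0 at E14.5, 49.4% in litter 2 and 49.5% in litter 3.

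**Figure D5:**
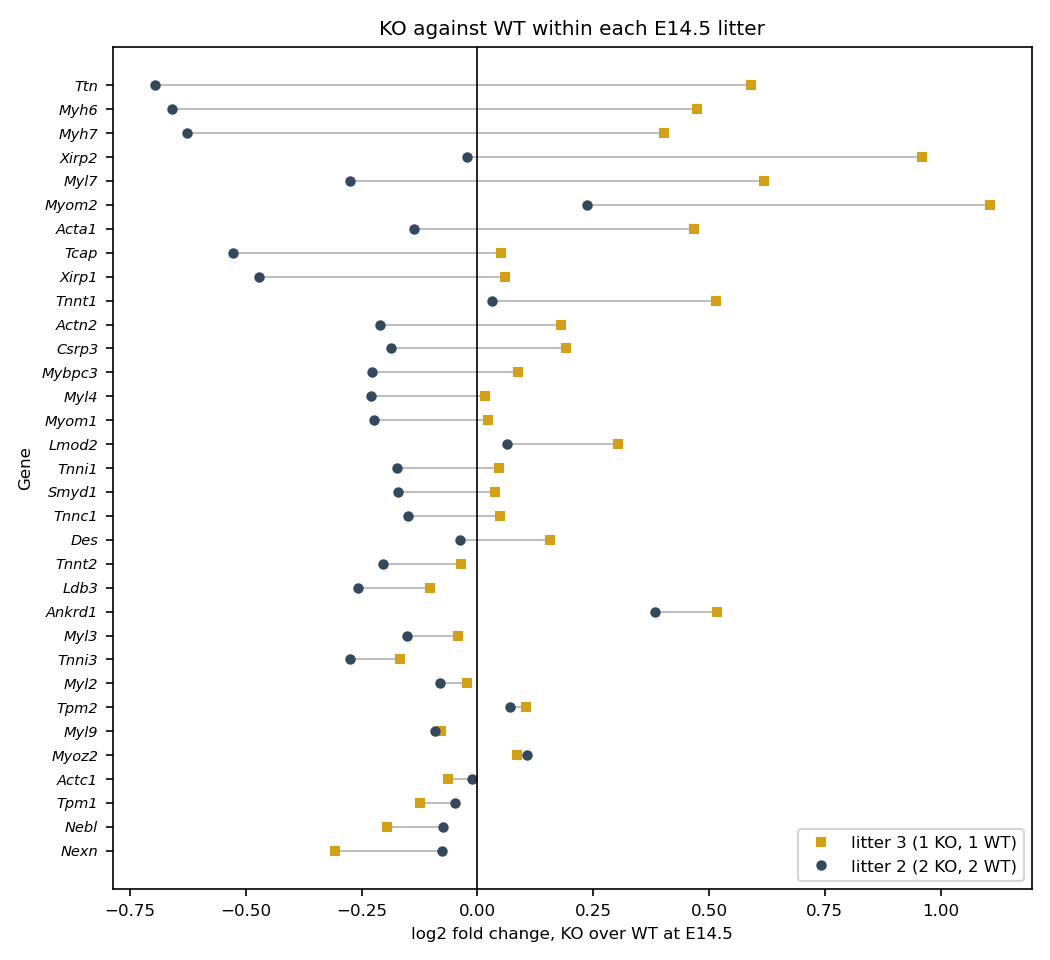
Log2 fold change of KO over WT at E14.5 for each gene within litter 3 (squares, 1 KO and 1 WT heart) and litter 2 (circles, 2 of each), joined by a line. Ttn, Myh6 and Myh7 at the top lie below 0 in litter 2 and above 0 in litter 3.

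Beside the members, a list of 42 other sarcomere genes had 41 tested. With stage, averaged over genotypes, 11 rose and 8 fell, against 17.2% of all genes called in either direction. Fhl2 (a LIM protein, 0.55 ± 0.09, adjusted p = 0.00276, edgeR), Trim63 (the muscle ubiquitin ligase MuRF1, 0.34) and Mypn (myopalladin, 0.59) rose. Actn1 (a non-muscle α-actinin, -0.43) and Pdlim7 (-0.57) fell. In KO, averaged, 1 of the 41 passed: Synm, synemin, averaged 19.0 CPM in KO and 14.2 CPM in WT (0.41 ± 0.09, adjusted p = 0.0407). It held in 3 of 12 fits that left out 1 heart, with adjusted p from 0.00198 to 0.17 over all settings. Of 20 regulators of sarcomere genes, 3 rose (Mef2a 0.39, Hopx 0.31 and Hey2 0.30) and 4 fell (against the same 17.2%), among them Tbx5 (-0.42), Hand1 (-0.75) and Hand2 (-0.28), and 0 passed in any KO comparison. The list medians were 0.08 and -0.01 with stage, against 0.00 over all genes. In KO averaged over the stages, 27 of the 41 other sarcomere genes and 16 of the 20 regulators lay below 0. Their median log2 fold changes were -0.05 and -0.08, against -0.002 over all genes, of which 49.3% lay above 0.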

How the data were processed

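The authors deposited raw read counts by gene symbol, not normalized, as whole numbers; 27 of 45664 rows are date-like symbols and 0 of the members are among them. STAR 2.5.3a, featureCounts, DESeq2, DESeq and build GRCm38 are listed, per the submitters' processing notes. The counting settings are not given in the sources used here. Libraries were matched to columns through the description labels. In R 4.3.3, edgeR 4.0.16 filtered with filterByExpr, scaled by TMM and fitted 1 robust quasi-likelihood model of 4 group means over 12 libraries, which left 8 residual degrees of freedom and a common BCV (biological coefficient of variation) of 17.1%. The comparison within litters came from a second such fit of 6 group means, with E14.5 divided by litter (6 residual degrees of freedom). P-values are two-sided and adjusted by Benjamini-Hochberg over all 20691 genes, with a threshold of 0.05. Errors are SE of the log2 fold change, and CPM are library-scaled. Pair ratios used Python 3.11.15 with a pseudocount of 0.5 counts, and p-values were adjusted over the 48 tests of 8 pairs, of which 1 is not reported here. Levels per length and coordinates used GENCODE M21 on GRCm38. Scripts were tested on simulated data. Members, lists and tests were chosen with earlier results of these data known. The stage comparison averaged over genotypes and the comparison within litters were added after seeing the data. Named genes are the pair members, called members and the 3 smallest p-values of each comparison, and up to 6 of each other list. Alternatives were DESeq2 1.42.0, RLE size factors, total counts, no filter, a fit of the compared libraries alone, a litter block, a Y-linked covariate, a non-robust fit, and leaving out libraries.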

Additional observations from a re-analysis of the deposited data

How the results depend on the processing

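No paired analysis was possible because the groups compared share no replicate numbers; a term for litter 3 (litter block) was used instead, which cannot separate stage from litter. In KO against WT, the count of 0 members called at E14.5 came to 1 (Myh7) without litter 3. Averaged over the stages it came to 1 with DESeq2 (Ankrd1), 1 without litter 3 (Myh7), and 0 to 1 when each heart was left out. Within KO hearts the 4 stage calls ranged from 0 to 6 when each heart was left out, and were 0 without E14.5 KO replicate 2 together with replicate 5 of E13.5 KO. Within WT hearts the 2 stage calls ranged from 0 to 6 when each heart was left out, and were 8 with DESeq2, 1 with no low-count filter, 1 with Y-linked expression as a covariate, 1 without both hearts named above and 0 without litter 3. The share of all genes called in each of these settings is not given here. A change in the count of members therefore cannot be set against a change over all genes. The stage calls averaged over the genotypes ranged from 7 (litter block) to 12 over 21 settings; Myl7 and Nexn were lost with the litter block (adjusted p 0.052 and 0.0594), as were Ldb3 (0.0681) and Csrp3 (0.0937). The isoform tests with stage gave 0 to 5 pairs passing when each heart was left out, which rests on how many pairs reach the floor of 0.005. Averaged KO ratio differences that changed sign, all near 0, were Tnni3/Tnni1 (0.0082 without litter 3, 0.0463 without E14.5 WT replicate 7.2, and -0.0491 to 0.0594 without another heart), Myl3/Myl4 (0.0435 without E14.5 WT replicate 7.2, and -0.094 to 0.029 without another heart) and Tpm1/Tpm2 (-0.0751 to 0.0167 when each heart was left out). The cause of these changes was not tested. Of the values for named members, 547 kept their side of the threshold, 8 newly passed and 67 no longer passed, with 0 reversed. The part of sequencing depth in these calls was not tested.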
